A study of Mus musculus with 48 samples.

Results

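Castration in XY mice with testes was examined in the liver transcriptome of mice of the FCG model fed a high-fat diet (HFD). The comparison took the libraries whose genotype label was XY-;SryTg and set the 6 mice after gonadectomy (XY Te GDX) against the 6 mice with intact gonads (XY Te Intact), which are 12 of the 48 mice of the series. In FCG mice the testis-determining gene Sry is deleted from the Y chromosome (written Y-) and supplied as a transgene on an autosome (SryTg), so that XY or XX mice can carry either testes (Te) or ovaries (Ov), and the XY Te mice are in this respect not wild-type males. The purpose of the cohort was to separate what gonads and what sex chromosomes contribute to hepatic gene expression on a lipid-rich diet, and removing the testes asks what depends on testes in the adult.

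All mice were on a C57BL/6 background, and all received a diet with 60% of calories from fat from 15 to 17 weeks of age. The castrated mice lost their testes at 75 days of age and ate the HFD for 15 weeks, whereas the intact mice ate it for 11 weeks, so the arms also differed in age at collection and in time on the diet, and these cannot be told apart from castration. These diet lengths are those of the sample labels. The paper gives other lengths, with a larger gap between the intact and GDX cohorts. Other groups of 6 mice each were used only for comparison. They were XY mice with ovaries (genotype label XY-, no transgene), intact and GDX, XX mice with testes (XX;SryTg), intact and GDX, and intact XX mice with ovaries (XX), and in each of them GDX and intact mice had the same diet lengths as above. No group ate another diet and no castrated mouse is labelled as given a hormone, so the data describe castration under the HFD alone.

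In the male mouse liver, many genes follow sex through the rhythm of growth hormone. Testicular androgens shape the pituitary output of growth hormone into separated pulses, hepatocytes read each pulse through the growth hormone receptor, JAK2 and the transcription factor STAT5, and the nearly continuous hormone of females drives another set of genes. Male-biased products include the major urinary proteins (MUPs), lipocalins that carry pheromones into urine, and enzymes of steroid hydroxylation, while female-biased products include other cytochrome P450 enzymes and sulfotransferases. BCL6 is a repressor more abundant in male liver and CUX2 a homeodomain factor more abundant in female liver, and both act on these genes.

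The 12 libraries held 13922049 to 19402886 reads on genes, and the least that was read as expression, 3 reads, was worth 0.147 to 0.254 CPM (reads scaled to a common library size). Such floors cover only counting error. The share of reads outside genes ran from 3.52% to 5.36% with testes in place and from 10.1% to 11.3% after castration. It separated all 24 intact mice of the series (3.47% to 6.20%) from all 24 GDX mice (8.52% to 11.3%) as well. Reads that mapped to several places made up 11.0% to 18.9% of the intact and 9.08% to 9.71% of the castrated libraries. Unmapped reads made up 8.42% to 16.5% of the intact and 7.72% to 9.22% of the castrated libraries. In intact XY Ov mice, used for comparison below, these 2 shares were 11.5% to 13.4% and 7.68% to 8.975%. The 2 intact mice 89033 and 99557 had the lowest Mup20 among intact mice, and the counts that lead the text were also taken without them. They were chosen after seeing the data. Leaving them out can widen the gap between the arms for genes that follow Mup20, so those counts are not an independent check. Ddx3y, a Y-linked RNA helicase, had 52.3 to 82 CPM (median 65.1) in the intact mice and 61.3 to 75.6 CPM (median 68.8) in the castrated mice, against at most 4.19 CPM in intact XX Te mice, and Xist, the RNA of the inactive X, reached at most 7.5 CPM in XY Te mice against at least 331 CPM in intact XX Te mice, so all 12 libraries matched their chromosome labels. Of the 6 hepatocyte markers, all were detected, with summed levels of 75480 to 137200 CPM in the intact and 74340 to 96410 CPM in the castrated mice. In bulk tissue, fewer cells of a type and less RNA per cell cannot be told apart.

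Most expressed genes differed in level between castrated and intact mice. With the quasi-likelihood test of edgeR and Benjamini-Hochberg adjustment over 15414 tested genes, 8745 genes (56.7%) differed between the arms at an adjusted p under 0.05, 4311 of them higher (28.0%) and 4434 lower (28.8%) after castration. Both that p and a fold change above 1.5 held for 5982 genes (38.8%). At a fold change of at least 2 as well, 1758 genes rose (11.4%) and 1600 fell (10.4%), and for 3184 genes (20.7%) the levels of the 2 arms did not overlap. Levels in the text are CPM scaled by the trimmed mean of M-values (TMM) factors, and changes are log2 fold changes of GDX over Intact with their standard error (SE), fitted with the spread of all 48 mice. Scaling by library totals instead moved the median change of all genes from 0.05 to 0.38 and turned the share of higher genes among the calls from 49.3% into 74.2%, so changes are relative to that shift. That scaling called 7340 of the 15414 genes higher and 2553 lower, and list counts with library totals are read against these. With the share of reads outside genes as a covariate (the share-adjusted fit), 1941 genes passed (12.6%), 668 of them higher (4.33%) and 1273 lower (8.26%). Among the 8745 were 430 of these genes with the same direction and 494 with the opposite direction. Counts of gene lists are read against these shares. That share does not overlap between the arms, so what it carries and castration cannot be told apart. Without mice 89033 and 99557, 9623 genes were called.

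The largest falls were in the MUPs. All 17 tested members fell (28.8% of all tested genes fell), with a median log2 fold change of -6.98, whereas the median of all genes was 0.05. Their summed level was 8391 to 62280 CPM (median 46010) in the intact mice and 891.5 to 1441 CPM (median 1300) in the castrated mice. Mup20, which encodes the male pheromone darcin, had 1757 to 22770 CPM (median 13020) in the intact mice and 16.6 to 189.5 CPM (median 37.2) in the castrated mice, a mean level 199.7-fold lower after castration. The lowest intact mice were 89033 and 99557 (1757 and 3080 CPM), yet all 6 castrated mice lay below every intact mouse. Mup20 fell by 7.64 ± 0.75 on the log2 scale (adjusted p = 1.54e-10). Mup3, the member with the highest median in intact mice, had 5701 to 31940 CPM (median 26540) in the intact mice and 867 to 1296 CPM (median 1223) in the castrated mice. It fell by 4.25 ± 0.44 on the log2 scale (adjusted p = 6.57e-10), and it kept the highest level of the family after castration. Mup7 and Mup11 had the largest falls: Mup7 had 295 to 7090 CPM (median 2791) in the intact mice and 1.3 to 3.48 CPM (median 2.93) in the castrated mice, and Mup11 had 244 to 3119 CPM (median 975) in the intact mice and 0.351 to 1.71 CPM (median 0.663) in the castrated mice. The arms did not overlap for either gene, which fell by 10.08 ± 0.96 and 10.54 ± 1.11 on the log2 scale (adjusted p = 7.27e-11 and 7.93e-10). Mup8 kept 2 reads in all 6 castrated mice against 384 in the intact mice, a ratio of 237.5 with a 95% counting interval of 65.31 to 1969. MUP genes are near-identical copies in one cluster on chromosome 4 whose reads can be split or dropped at counting, so the value of a single member is uncertain while that of the family is less so. In the share-adjusted fit, 6 of the 17 members still fell.

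The 250 bases before the RefSeq start (build GRCm38.p6, which is not the build of the counts) are shown for Mup7 and Mup11, the members with the largest falls, because they carry a common block at different distances from the start. Sequences run 5′ to 3′ on the strand of the gene, and capitals mark CCAAT, the motif of NF-Y, here read on the other strand as ATTGG.
Mup7, chr4:60070476-60070725, minus strand: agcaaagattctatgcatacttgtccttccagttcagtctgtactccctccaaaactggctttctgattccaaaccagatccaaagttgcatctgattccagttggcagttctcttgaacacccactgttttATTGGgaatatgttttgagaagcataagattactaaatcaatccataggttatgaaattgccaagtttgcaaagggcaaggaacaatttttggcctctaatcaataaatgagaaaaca
Mup11, chr4:60662396-60662645, minus strand: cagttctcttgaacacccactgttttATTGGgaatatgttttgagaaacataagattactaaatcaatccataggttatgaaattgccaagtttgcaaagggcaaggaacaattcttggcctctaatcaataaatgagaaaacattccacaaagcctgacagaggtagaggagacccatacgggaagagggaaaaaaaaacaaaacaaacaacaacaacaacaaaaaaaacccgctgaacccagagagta
The windows of Mup7, Mup11, Mup14 and Mup18 share an identical run of 66 bases, which begins 96, 202, 179 and 221 bases before their starts. It is in 9 windows of the table, all of MUPs, of which 6 hold CCAAT and 3, Mup9 and Mup19 among them, do not.
Run shared by these MUP windows: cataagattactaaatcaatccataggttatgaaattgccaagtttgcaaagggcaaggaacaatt
Of the 12 genes with the largest falls, 8 had a window in the RefSeq table. Searched on both strands, CCAAT was in 4 of them, the 4 MUPs above, against 33.8% of all 32851 windows. Neither TTCNNNGAA, the STAT5 motif, nor AGAACA, the half-site of steroid receptors, was in any of the 8, against 7.02% and 16.1% of all windows. A match is a description of the letters and not a site.

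The other genes known to be higher in male mouse liver fell as a group: all 19 tested members of the testis-biased list fell, with a median log2 fold change of -3.31. Hsd3b5, a keto-steroid reductase of male liver, had 20.8 to 396 CPM (median 79.8) in the intact mice and 0 to 0.268 CPM (median 0.123) in the castrated mice. It fell by 10.01 ± 1.04 on the log2 scale (adjusted p = 6.35e-10), and the castrated mice held 13 of its reads in all. Cyp4a12a, an omega-hydroxylase of arachidonic acid, had 53.9 to 154 CPM (median 98.7) in the intact mice and 0.0498 to 0.536 CPM (median 0.283) in the castrated mice. Slco1a1, an uptake transporter of bile acids and steroid conjugates, had 268 to 1114 CPM (median 749) in the intact mice and 2.44 to 6.05 CPM (median 3.29) in the castrated mice. For these 3 genes every castrated mouse lay below every intact mouse, and the last 2 fell by 8.50 ± 0.87 and 7.60 ± 0.81 on the log2 scale (adjusted p = 5.19e-10 and 1.35e-09). Elovl3, an elongase of very long chain fatty acids, had 120 to 185 CPM (median 146) in the intact mice and 1.11 to 3.89 CPM (median 2.66) in the castrated mice. Serpina1e, a member of the alpha-1-antitrypsin family, fell by 6.18 ± 0.78 on the log2 scale (adjusted p = 3.64e-08). Obp2a, an odorant-binding lipocalin, had 291 reads over the 6 intact mice and 0 in the castrated mice, which makes it at least 120.0-fold lower when the floor of 3 reads is taken over the arm. Cyp2d9, a steroid 16-alpha-hydroxylase, had 504 to 718 CPM (median 568) in the intact mice and 50.3 to 129 CPM (median 73.5) in the castrated mice. Its log2 fold change was -2.86, beside those of Gstp1, a glutathione transferase (-3.00), and Egfr, the epidermal growth factor receptor (-1.40), all with no overlap between the arms. Selenbp2 differed widely among the intact mice: it had 7.55 to 261 CPM (median 9.36) in the intact mice and 2.34 to 7.47 CPM (median 4.13) in the castrated mice, with 260.7 CPM in mouse 20024 and 66.4 CPM in mouse 70314, and it fell by 3.80 on the log2 scale (adjusted p = 2.38e-06), or by 2.21 without mouse 20024. After adjustment for the outside-gene share, 14 of the 19 still fell, and without mice 89033 and 99557 all 19 did.

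**Figure D1:**
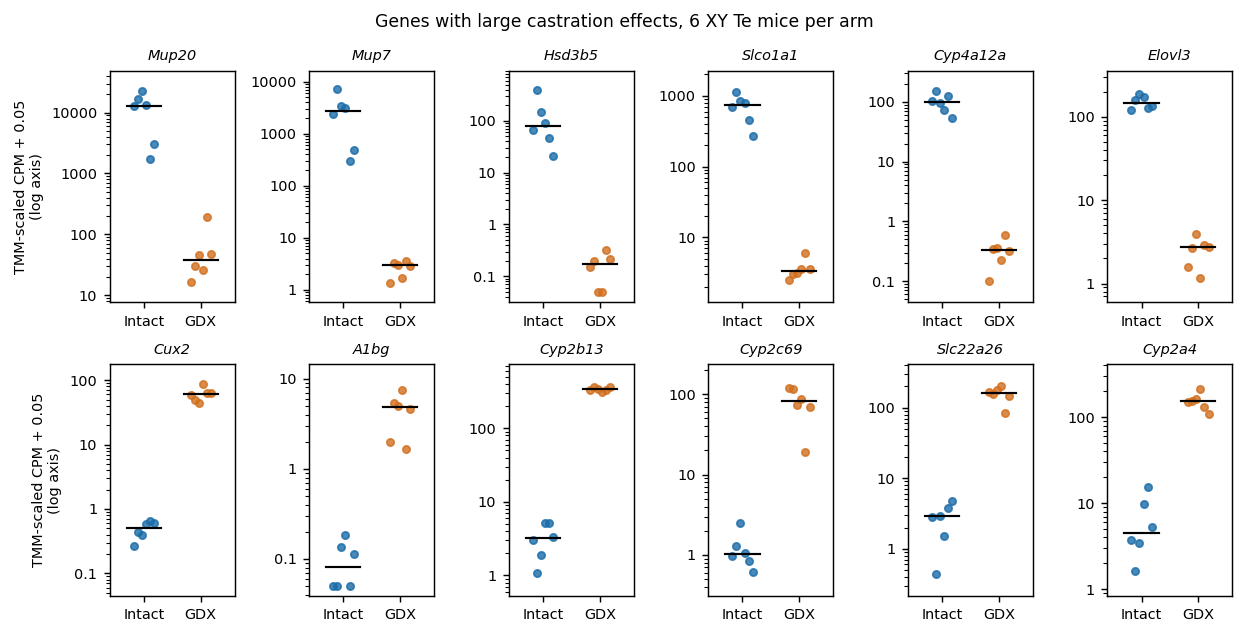
TMM-scaled CPM plus 0.05 on log axes for 6 genes that fell (upper row) and 6 that rose (lower row) after castration, one point per mouse, 6 XY Te mice per arm, lines at the medians. In all 12 genes the arms do not overlap, and among the intact mice Mup20 ranges from 1757 to 22770 CPM.

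Genes known to be higher in female mouse liver rose in turn. Of 27 tested members of the ovary-biased list, 22 rose (28.0% of all tested genes rose) and none fell, with a median log2 fold change of 2.63. Cux2 had 0.214 to 0.6 CPM (median 0.461) in the intact mice and 43.6 to 87.3 CPM (median 60.5) in the castrated mice. Cyp2b13, a cytochrome P450 of the 2b family, had 1.01 to 5.13 CPM (median 3.14) in the intact mice and 311 to 367 CPM (median 340.1) in the castrated mice, with little spread among the castrated mice. For both genes the arms did not overlap, and they rose by 7.04 ± 0.66 and 6.70 ± 0.49 on the log2 scale (adjusted p = 4.81e-11 and 9.54e-14). A1bg, a secreted immunoglobulin-like protein, had 0 to 0.133 CPM (median 0.0309) in the intact mice and 1.61 to 7.43 CPM (median 4.77) in the castrated mice. Slc22a26, an organic anion transporter, had 0.389 to 4.77 CPM (median 2.83) in the intact mice and 83.3 to 201 CPM (median 162) in the castrated mice. Sult2a5 had 2 reads in all intact mice against 238 in the castrated mice, a ratio of 96.2 with a 95% counting interval of 26.3 to 799. The sulfotransferase Sult2a2, the steroid 15-alpha-hydroxylase Cyp2a4, and Cyp2a22 rose by 4.87, 4.54 and 4.10 on the log2 scale. Aldh3b3, an aldehyde dehydrogenase, had 0.0778 to 0.371 CPM (median 0.274) in the intact mice and 3.21 to 5.28 CPM (median 4.22) in the castrated mice. Cyp2c69 had 0.557 to 2.46 CPM (median 0.964) in the intact mice and 19.3 to 120.2 CPM (median 81.2) in the castrated mice and Cyp2c40 0.186 to 2.37 CPM (median 0.521) in the intact mice and 17.2 to 67.7 CPM (median 49.4) in the castrated mice, with no overlap, and both belong to a cluster of near-identical genes whose reads can be shared. The 5 members that did not pass included Sult1e1, the estrogen sulfotransferase, with 0.15 to 0.572 CPM (median 0.29) in the intact mice and 0 to 0.428 CPM (median 0.163) in the castrated mice. Under the share-adjusted fit, 18 of the 27 rose, and without mice 89033 and 99557 20 did.

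Of the 12 genes with the largest rises, 10 had a RefSeq window. The STAT5 motif TTCNNNGAA was in 2 of them, A1bg and Slc22a26, the half-site AGAACA in 1 (Slc22a26) and CCAAT in 2 (Aldh3b3 and Slc22a26). The windows of the 2 genes with the STAT5 motif are shown with every match in capitals (TGTTCT and ATTGG are AGAACA and CCAAT on the other strand).
A1bg, chr15:60921271-60921520, minus strand: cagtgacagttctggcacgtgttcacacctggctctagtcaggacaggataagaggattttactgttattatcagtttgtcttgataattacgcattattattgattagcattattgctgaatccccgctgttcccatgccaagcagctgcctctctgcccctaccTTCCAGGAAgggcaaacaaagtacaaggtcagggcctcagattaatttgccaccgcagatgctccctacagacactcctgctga
Slc22a26, chr19:7802668-7802917, minus strand: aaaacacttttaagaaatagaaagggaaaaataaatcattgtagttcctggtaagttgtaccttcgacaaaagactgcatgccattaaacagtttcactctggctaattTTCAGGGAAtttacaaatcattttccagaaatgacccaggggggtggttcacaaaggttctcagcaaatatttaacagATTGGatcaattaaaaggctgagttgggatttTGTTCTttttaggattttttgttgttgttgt
The windows of Cyp2c69 and Cyp2c40 share an identical run of 93 bases, which begins 123 and 93 bases before their starts and is shown as the stretch that both windows have in common.
Shared run of the Cyp2c69 and Cyp2c40 promoters: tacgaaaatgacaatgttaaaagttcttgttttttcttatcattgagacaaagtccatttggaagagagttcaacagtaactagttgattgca

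To describe the effect on genes chosen by a contrast of XX mice, genes that differed by at least 2-fold at an adjusted p under 0.05 between intact XX Te and intact XX Ov mice were followed. The filter, scaling and spread behind these calls came from all 48 mice, so the XY mice still had a part in the choice. Between the 12 intact XX mice 897 of 15414 genes (5.82%) passed at any fold, 2.19% higher and 3.63% lower with testes. Of these 161 were at least 2-fold higher with testes and 211 with ovaries. Of the 161 genes higher with testes, 127 fell (78.9%) and 1 rose after castration of XY mice, with a median log2 fold change of -1.71. Of the 211 genes higher with ovaries, 95 rose (45.0%) and 18 fell, with a median of 0.82. The corresponding shares over all tested genes were 28.8% and 28.0%, and the median was 0.05. In XY Ov mice after ovariectomy, 40 of the 161 fell and 21 rose, and 21 of the 211 rose and 77 fell, where 29.2% of all genes fell and 30.3% rose. The set of 211 depended on 1 mouse: without the intact XX Te mouse 14614, 457 genes were higher with ovaries, of which 193 rose. When only the compared arms were fitted, the sets shrank, and 77 of 97 fell and 48 of 66 rose. Once the outside-gene share was adjusted for, 60 of 173 fell and 63 of 213 rose, against 8.26% and 4.33% of all genes.

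**Figure D2:**
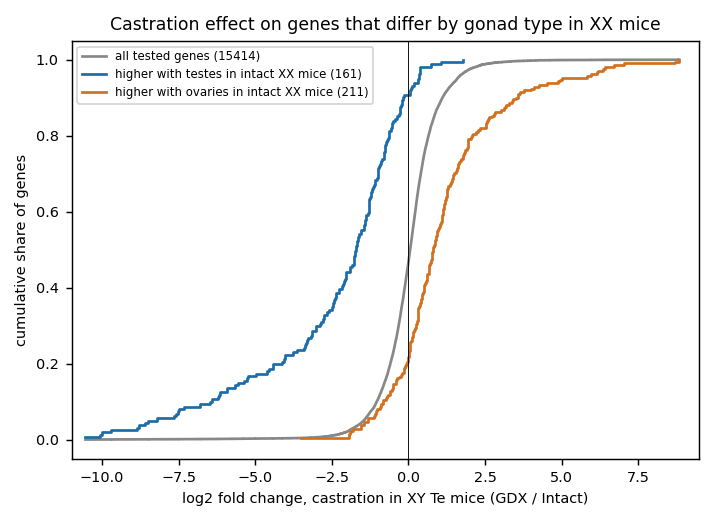
Cumulative share of genes (y axis) against the log2 fold change of castration in XY Te mice (x axis), for all 15414 tested genes, the 161 genes higher with testes and the 211 genes higher with ovaries in intact XX mice. The curve of the 161 genes lies to the left of that of all genes (median -1.71 against 0.05) and the curve of the 211 genes to the right (median 0.82).

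Since the GDX arm of XY mice with ovaries had the same longer diet and the same higher share of reads outside genes, the castration effect was compared with that of ovariectomy in the XY background. Ovariectomy called 9161 genes (59.4%), 30.3% higher and 29.2% lower. The difference between both effects was itself called for 338 genes (2.19%), 175 higher (1.14%) and 163 lower (1.06%) after castration. Of the 175, 143 rose after castration, while 7 rose and 63 fell after ovariectomy. Of the 163, 151 fell after castration, while 36 rose and 38 fell after ovariectomy. Both sets were picked by the difference itself in the same mice, which largely sets these directions. Cux2 had 3.29 to 77.8 CPM (median 13.1) in intact XY Ov mice and 35.7 to 77.4 CPM (median 44) in GDX XY Ov mice, and its rise after castration exceeded its change after ovariectomy by 5.95 ± 0.79 on the log2 scale (adjusted p = 3.65e-06). Cyp2c69 had 63.4 to 444 CPM (median 231) in intact XY Ov mice and 70.7 to 173 CPM (median 104) in GDX XY Ov mice and Cyp2a4 202 to 1087 CPM (median 646) in intact XY Ov mice and 253 to 446 CPM (median 352) in GDX XY Ov mice, and their differences were 7.25 and 5.44 (adjusted p = 6.96e-06 and 1.56e-07). Mup20 also fell after ovariectomy, from a lower level: it had 89.1 to 362 CPM (median 232) in intact XY Ov mice and 24.6 to 38.3 CPM (median 28.5) in GDX XY Ov mice, and its fall after castration was larger by 4.75 on the log2 scale (difference -4.75 ± 0.83, adjusted p = 0.000386). Of the 17 MUPs, 15 fell after ovariectomy and the difference was called for 10, all lower after castration. The testis-biased list had 9 members that fell and 1 that rose after ovariectomy, with 12 differences called, and the ovary-biased list had 5 members in each direction, with 15 differences called. Genes of other function were among the 338 too: Saa2, an acute phase apolipoprotein, fell after ovariectomy (log2 fold change -2.14) and rose after castration, with a difference of 4.85 ± 1.16 (adjusted p = 0.0164), and Srd5a1, the steroid 5-alpha-reductase, had a difference of -1.78 ± 0.29 (adjusted p = 0.000122). The count ranged from 164 (without XY Te GDX mouse 13306) to 512 (without intact XY Te mouse 10606) and was 714 without 89033 and 99557. In the share-adjusted fit 1020 genes were called, which included all 338 in the same direction.

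**Figure D3:**
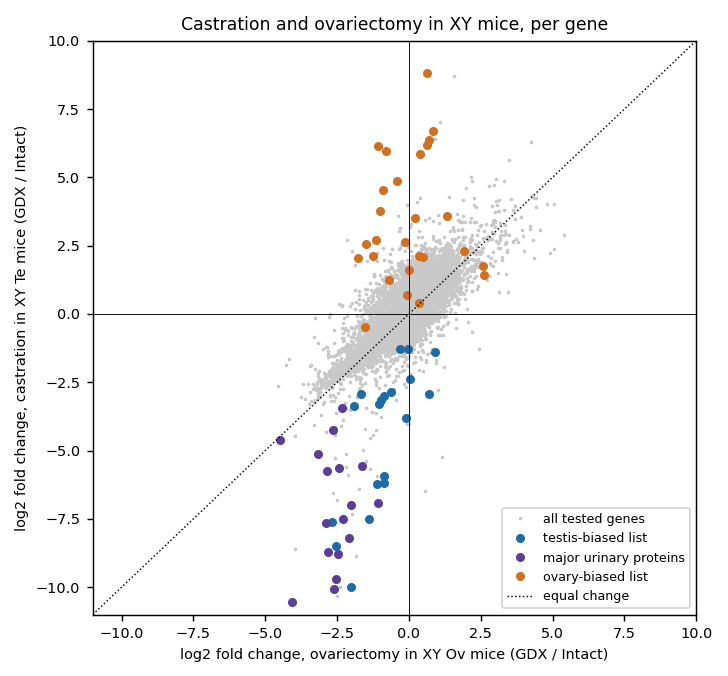
Log2 fold change of castration in XY Te mice (y axis) against that of ovariectomy in XY Ov mice (x axis) for 15414 tested genes (grey), with members of the testis-biased list (blue), the MUPs (purple) and the ovary-biased list (orange), and a dotted line of equal change. Blue and purple points lie low on the castration axis (medians -3.31 and -6.98) and orange points high (median 2.63), and on the ovariectomy axis the medians are -0.88, -2.54 and 0.00.

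Before removal, XY mice with testes and with ovaries differed in 2395 genes (15.5%), 1138 of them higher with testes (7.38%) and 1257 lower (8.15%). The count was 837 when only the compared arms were fitted and 4522 in the share-adjusted fit. After removal, edgeR called 4 genes (0.026%), 3 higher (0.0195%) and 1 lower (0.00649%) in former carriers of testes, with 229 at an unadjusted p under 0.05 and 10 by DESeq2. Cyp2d9 had 50.3 to 129 CPM (median 73.5) in XY Te GDX mice and 18.4 to 23.1 CPM (median 20.4) in XY Ov GDX mice, a difference of 1.95 ± 0.28 on the log2 scale (adjusted p = 1.78e-04), whereas the intact mice differed by 4.17. The other 3 were named after their values were seen. Rassf3 is a Ras association domain protein and Tmem19 a membrane protein. Both were higher in XY Te GDX than in XY Ov GDX mice, by 0.51 and 0.55 on the log2 scale. The pseudogene Mup-ps16 was lower in XY Te GDX mice (log2 fold change -1.68). After castration itself, Rassf3, Tmem19 and Mup-ps16 all fell (log2 fold changes -0.67, -0.70 and -1.19). These comparisons of XY Te with XY Ov mice share their mice with the castration effect and are given side by side only. Without single mice the count was 2 to 5, being 2 without XY Te GDX mouse 30544 or 59091 or XY Ov GDX mouse 72268, 76112 or 88616, and XY Te against XY Ov before removal gave 1677 to 2845.

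Castration of XX mice with testes, which asks whether the sex chromosomes alter the response, called 5718 genes (37.1%). The difference between castration in XY and in XX mice was called for 340 genes (2.21%), 253 higher (1.64%) and 87 lower (0.564%) in XY mice. Of the 253, 246 rose in XY mice, while 7 rose and 23 fell in XX mice. The 253 were picked by the difference itself in the same mice, which largely sets these directions. Mup11 had 29.8 to 407 CPM (median 213) in intact XX Te mice and 1.31 to 25.9 CPM (median 2.58) in GDX XX Te mice, so its fall was 4.89 on the log2 scale there and larger in XY mice by a difference of -5.65 ± 1.19 (adjusted p = 0.0215). Mup18, Cyp4a12a and Mup19 were the other 3 with the lowest differences (log2 -5.41, -4.80 and -4.68), and 10 of the 17 MUPs were called. Cyp4a12a had 31.4 to 109 CPM (median 47) in intact XX Te mice and 0.317 to 12.9 CPM (median 0.837) in GDX XX Te mice. The highest differences were in Acod1, the itaconate-forming enzyme of activated macrophages, Cxcl13, a B cell attracting chemokine, Cdkn2a, a cell cycle inhibitor, and Lox, which crosslinks collagen (differences in log2 5.02, 4.56, 4.39 and 3.76). Acod1 was high in castrated XY Te mice 13306 and 28605 (13.85 and 8.63 CPM) and had 0.163 to 1.81 CPM in the others. Intact XY Te mice had 0.0666 to 4.395 CPM, so the arms overlapped. Without single mice its log2 fold change of castration in XY Te mice ran from 1.24 to 3.95. Cdkn2a had 0.156 to 0.743 CPM (median 0.454) in intact XY Te mice and 0.702 to 4.63 CPM (median 1.8) in castrated XY Te mice, and at most 0.0786 CPM in castrated XX Te mice. Lox had 0.156 to 1.8 CPM (median 0.398) in the intact mice and 1.29 to 24.6 CPM (median 5.23) in the castrated mice, with the highest value in mouse 13306. This count is fragile: without single mice it ran from 4 to 795, being 4 without XY Te GDX mouse 13306 or without intact XX Te mouse 14614, 31 and 48 without intact XY Te mice 20024 and 76370, and 795 without 89033. It was 1122 without both 89033 and 99557, 6 when only the compared arms were fitted and 8 in the share-adjusted fit.

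Of 13 tested genes of growth hormone signalling, STAT5 and IGF1, 2 rose and 1 fell (28.0% and 28.8% of all genes). With library totals 9 rose and 1 fell, and in the share-adjusted fit none rose and 2 fell. Ghr, the growth hormone receptor, had 666 to 959 CPM (median 809) in the intact mice and 406 to 581 CPM (median 485) in the castrated mice. It fell by 0.73 ± 0.12 on the log2 scale (adjusted p = 2.93e-06), with no overlap. Socs3, a feedback inhibitor of cytokine signalling, and Igfals, the acid-labile subunit that holds IGF1 in plasma, rose by 1.23 and 0.62 on the log2 scale (adjusted p = 0.000604 and 0.00256). Stat5b (log2 fold change 0.17, adjusted p = 0.132) and Igf1 (log2 fold change 0.21, adjusted p = 0.158) did not pass, nor did the STAT5-induced inhibitors Cish and Socs2 (log2 fold changes 0.91 and 0.48, adjusted p = 0.0683 and 0.187). Among 12 transcription factors tied to liver sex bias, 6 rose and 1 fell. Ovariectomy of XY mice gave 6 rises and no fall among them, and the difference was called for 3. Cux2, above, had the largest rise after castration. Trim24, a corepressor, had 23.5 to 50.7 CPM (median 29.1) in the intact mice and 56.5 to 86.6 CPM (median 73.6) in the castrated mice. It rose by 1.15 ± 0.17 on the log2 scale (adjusted p = 7.04e-07). Tox, a high mobility group factor, rose by 1.16 on the log2 scale (adjusted p = 1.99e-06). Bcl6 had 19.8 to 89.4 CPM (median 55.2) in the intact mice and 24.5 to 52.8 CPM (median 26) in the castrated mice, arms that overlapped, and fell by 0.76 ± 0.32 on the log2 scale (adjusted p = 0.0432), a call that was lost without mice 89033 and 99557 (log2 fold change -0.46, adjusted p = 0.26) and with library totals (log2 fold change -0.45). In the share-adjusted fit, 1 of the 12 factors rose and 3 fell.

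Of 5 tested receptors for steroids and prolactin 3 rose and the other 2 did not pass, where 28.0% of all genes rose and 28.8% fell. Ovariectomy of XY mice gave 4 rises among the 5, and the difference was called for 1. Esr1, the estrogen receptor alpha, had 7.63 to 17.6 CPM (median 14.1) in the intact mice and 31.2 to 52.8 CPM (median 41.6) in the castrated mice. It rose by 1.65 ± 0.18 on the log2 scale (adjusted p = 2.46e-09). Prlr, the prolactin receptor, had 72.5 to 163 CPM (median 127) in the intact mice and 302 to 427 CPM (median 384) in the castrated mice. It rose by 1.60 ± 0.21 on the log2 scale (adjusted p = 7.06e-08). The arms of neither gene overlapped. Among 15 enzymes of steroid metabolism, which include Hsd3b5, 8 fell and 1 rose. Ovariectomy of XY mice gave 6 falls and no rise among them, and the difference was called for 2. Srd5a1, which converts testosterone into dihydrotestosterone, had 33.9 to 75.6 CPM (median 50.3) in the intact mice and 13.2 to 21.8 CPM (median 17.9) in the castrated mice. It fell by 1.56 ± 0.21 on the log2 scale (adjusted p = 9.86e-08). Akr1c6, a 17-beta-hydroxysteroid dehydrogenase, had 916 to 4391 CPM (median 2959) in the intact mice and 595 to 778 CPM (median 699) in the castrated mice. It fell by 1.98 ± 0.31 on the log2 scale (adjusted p = 1.74e-06), and Hsd17b2, which inactivates testosterone and estradiol, fell by 1.45 on the log2 scale. Cyp17a1, a 17-alpha-hydroxylase that the ovary-biased list also holds, had 12.5 to 61.8 CPM (median 29.7) in the intact mice and 65.5 to 135 CPM (median 114) in the castrated mice. It rose by 1.62 ± 0.34 on the log2 scale (adjusted p = 0.000122). After adjustment for the outside-gene share, 1 of the 5 receptors rose, and 3 of the 15 enzymes fell and 2 rose, with Akr1c6 and Hsd17b2 changing sign.

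Of 14 lipogenic genes 7 rose and 3 fell, against 28.0% and 28.8% of all genes. Me1 alone fell without mice 89033 and 99557 or with library totals, where 7 and 8 rose. Pnpla3, a lipid droplet hydrolase and acyltransferase that the study followed, had 0.0619 to 0.763 CPM (median 0.25) in the intact mice and 0.489 to 5.26 CPM (median 1.4) in the castrated mice, with 1 to 15 reads per intact and 9 to 90 reads per castrated mouse. The arms overlapped, and 4 castrated mice lay above every intact mouse, with the highest value in mouse 30544. Pnpla3 rose by 2.36 ± 0.71 on the log2 scale (adjusted p = 0.00438), and on unscaled CPM the castrated mean was 1.87 higher (exact two-sided permutation test of 6 against 6, p = 0.00866, where the smallest possible p is 0.00216). Ovariectomy of XY mice gave 5 rises and 2 falls among the 14 genes. No difference from ovariectomy, or from castration in XX mice, was called for Pnpla3 or any other of the 14. After castration of XY Te mice, Acaca and Acacb, the acetyl-CoA carboxylases, Fasn, the fatty acid synthase, Acly, Pklr and Elovl6 rose by 0.64 to 1.42 on the log2 scale. Fasn had 91.8 to 546 CPM (median 146) in the intact mice and 283 to 621 CPM (median 341) in the castrated mice, and the arms overlapped through the intact mouse 89033, which exceeded all castrated mice but 30544. Me1, the malic enzyme that supplies NADPH, had 128 to 263 CPM (median 235) in the intact mice and 52.9 to 123 CPM (median 77.5) in the castrated mice. It fell by 1.33 ± 0.19 on the log2 scale (adjusted p = 3.21e-07). Scd1, the stearoyl-CoA desaturase, had 1584 to 16860 CPM (median 7892) in the intact mice and 1443 to 10600 CPM (median 3049) in the castrated mice, with overlapping arms. It fell by 1.02 ± 0.42 on the log2 scale (adjusted p = 0.0351). The lipogenic regulators Srebf1 and Mlxipl did not pass (log2 fold changes 0.25 and 0.02, adjusted p = 0.369 and 0.89). Under the share-adjusted fit, none of the 14 rose and 1 fell, and Fasn and Pklr changed sign.

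The window of Pnpla3 before its RefSeq start holds 1 CCAAT match, in capitals and read on the other strand, and is shown because NF-Y at this promoter was a subject of the study.
Pnpla3, chr15:84167566-84167815, plus strand: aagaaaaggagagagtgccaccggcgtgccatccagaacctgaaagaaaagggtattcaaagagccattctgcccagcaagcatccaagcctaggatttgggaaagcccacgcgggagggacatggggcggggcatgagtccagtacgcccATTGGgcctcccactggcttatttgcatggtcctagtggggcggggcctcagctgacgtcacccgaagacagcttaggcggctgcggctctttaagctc

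Of 28 genes of triglyceride synthesis, storage and lipolysis 13 fell (46.4%) and 2 rose (7.14%), against 28.8% and 28.0% of all genes. With library totals 8 fell and 5 rose, where 2553 of all 15414 genes fell and 7340 rose. Ovariectomy of XY mice gave 9 falls and 4 rises in this list, and the difference was called for 1. Cidea, Cidec and Fitm1 enlarge lipid droplets or bud them from the endoplasmic reticulum. Cidec had 6.07 to 27 CPM (median 17.7) in the intact mice and 0.997 to 5.54 CPM (median 3.32) in the castrated mice and Fitm1 13.1 to 28.9 CPM (median 17.1) in the intact mice and 2.99 to 6.37 CPM (median 5.21) in the castrated mice, with no overlap in either, and they fell by 2.26 ± 0.53 and 1.91 ± 0.23 on the log2 scale (adjusted p = 0.000367 and 9.77e-09). Cidea had 79 reads in the intact and 2 in the castrated mice, a ratio of 48.9 with a 95% counting interval of 13.1 to 411, and the arms overlapped at 0. Most of these reads came from intact mouse 70314, with 3.98 CPM against 0 to 1.001 CPM in the other intact mice, and without single mice the log2 fold change ran from -5.71 to -4.01, the latter without 70314. Fabp1, the abundant fatty acid binding protein of hepatocytes, had 4353 to 9122 CPM (median 6385) in the intact mice and 1831 to 2906 CPM (median 2554) in the castrated mice. It fell by 1.42 ± 0.18 on the log2 scale (adjusted p = 2.7e-08). Agpat2, an acyltransferase of triglyceride synthesis, and Mogat1, which makes diacylglycerol, fell by 0.94 and 1.90 on the log2 scale. The 2 that rose were Pparg, a driver of fat storage, and Apob, the protein of secreted lipoproteins (log2 fold changes 0.97 and 0.59). Pparg had 7 to 20.2 CPM (median 13.6) in the intact mice and 19.7 to 32.1 CPM (median 26.4) in the castrated mice. Plin2, the main droplet coat, did not pass (log2 fold change -0.31, adjusted p = 0.201). Once the outside-gene share was adjusted for, 1 member fell and 2 rose, and Fabp1 and Apob changed sign. Without mice 89033 and 99557 15 fell and 5 rose.

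Targets of PPAR-alpha and enzymes of fatty acid oxidation counted 8 that fell and 2 that rose of 24, with a median log2 fold change of -0.21, while 28.8% and 28.0% of all genes fell and rose. Slc25a20, the mitochondrial carnitine carrier, had 134 to 285 CPM (median 190.1) in the intact mice and 74.5 to 128 CPM (median 103) in the castrated mice. It fell by 0.91 ± 0.18 on the log2 scale (adjusted p = 4.37e-05), while the coactivator Ppargc1a rose by 0.79 ± 0.15 on the log2 scale (adjusted p = 2.49e-05). Cholesterol synthesis genes mostly did not pass: of 19, 2 rose, among them the regulator Srebf2, and 3 fell, with a median of -0.05. Of 10 LXR receptors and targets 3 rose and 2 fell, led by Abcg1, a sterol exporter, which had 7.19 to 32.1 CPM (median 14.4) in the intact mice and 31.2 to 67 CPM (median 42.5) in the castrated mice. It rose by 1.47 ± 0.28 on the log2 scale (adjusted p = 2.64e-05). Of 19 genes of bile acid synthesis and transport 7 fell (36.8%) and 2 rose (10.5%). Cyp8b1, the 12-alpha-hydroxylase that sets cholic acid formation, had 128 to 322 CPM (median 190.5) in the intact mice and 30.8 to 137 CPM (median 88.3) in the castrated mice. It fell by 1.35 ± 0.33 on the log2 scale (adjusted p = 0.000633), with 4 castrated mice below every intact mouse. Cyp7a1, the rate-limiting enzyme, had 94.7 to 528 CPM (median 295) in the intact mice and 249.7 to 574 CPM (median 497) in the castrated mice and did not pass (log2 fold change 0.67, adjusted p = 0.111). Cyp7b1, an oxysterol 7-alpha-hydroxylase of the testis-biased list, had 113 to 522 CPM (median 154) in the intact mice and 20.2 to 31 CPM (median 23.2) in the castrated mice. It fell by 3.14 ± 0.31 on the log2 scale (adjusted p = 2.9e-10). Slco1a4, an uptake transporter, rose where Slco1a1 fell, and had 17.9 to 56.8 CPM (median 30.2) in the intact mice and 118 to 218 CPM (median 150.3) in the castrated mice (log2 fold change 2.27 ± 0.24, adjusted p = 9.29e-10), with no overlap, and the exporter Abcc4 rose by 1.14. With library totals 7340 of all 15414 genes rose and 2553 fell (median 0.38). The PPAR-alpha list then counted 7 rises and 3 falls (median 0.10), cholesterol synthesis 5 rises and no fall (median 0.34), and the bile acid list 9 rises and 5 falls (median 0.42). In the share-adjusted fit, the PPAR-alpha list counted 2 rises and 2 falls, cholesterol synthesis none, LXR targets 1 rise and 3 falls, and the bile acid list 1 rise and 3 falls, and Slc25a20, Ppargc1a, Srebf2 and Abcg1 changed sign.

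**Figure D4:**
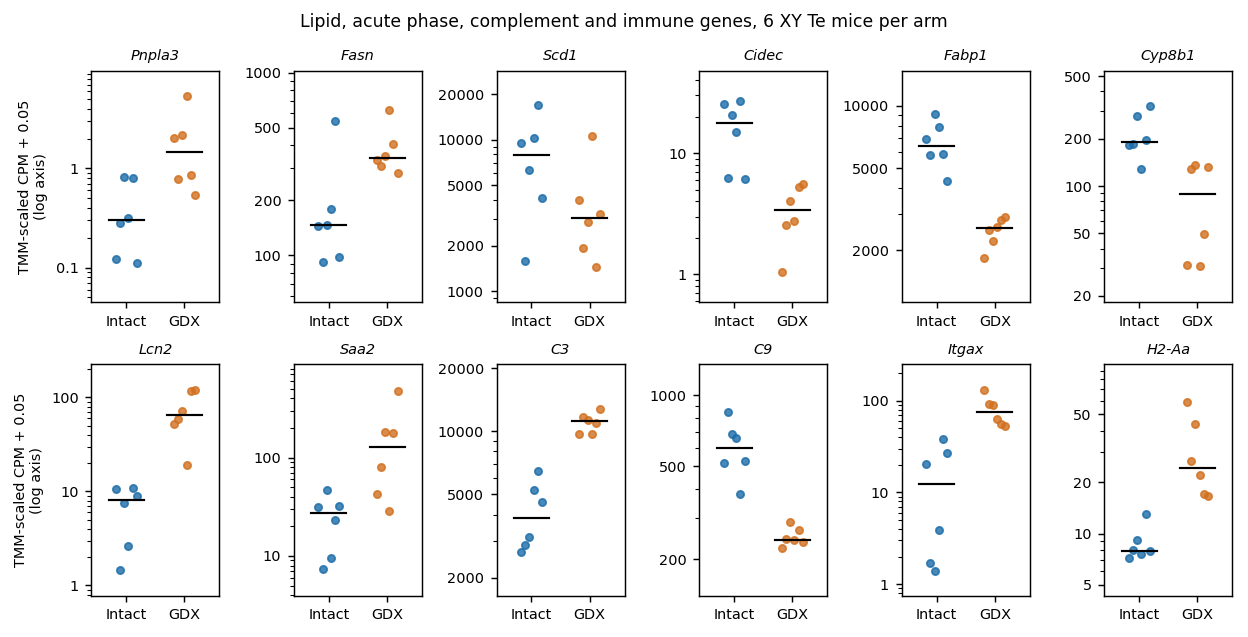
TMM-scaled CPM plus 0.05 on log axes for 6 genes of lipid and bile acid metabolism (upper row) and 6 acute phase, complement and immune genes (lower row), one point per mouse, 6 XY Te mice per arm, lines at the medians. The arms are apart for Cidec, Fabp1, Lcn2, C3, C9, Itgax and H2-Aa and overlap for Pnpla3, Fasn, Scd1, Cyp8b1 and Saa2.

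Of 18 genes of glucose production and insulin signalling 4 rose and 1 fell. Ppp1r3c, which directs protein phosphatase to glycogen, had 51.4 to 71.9 CPM (median 59.1) in the intact mice and 14 to 25.3 CPM (median 21.9) in the castrated mice. It fell by 1.53 ± 0.21 on the log2 scale (adjusted p = 1.44e-07), with no overlap. Insr, the insulin receptor, rose by 0.61 on the log2 scale (adjusted p = 0.00169). Of 12 enzymes of taurine, methionine and methyl transfer 6 fell and none rose, against 28.8% and 28.0% of all genes. With library totals 1 fell and 2 rose (median 0.07), and with 1 surrogate variable 2 fell and 1 rose. Csad, the decarboxylase that leads to taurine, had 79.7 to 195 CPM (median 102) in the intact mice and 17 to 33.4 CPM (median 31.3) in the castrated mice. It fell by 2.13 ± 0.40 on the log2 scale (adjusted p = 2.2e-05). Of 18 xenobiotic receptors and targets 3 rose and 5 fell, or 8 and 5 with library totals. Among them Alas1, the first enzyme of heme synthesis, and Por, the electron donor of cytochrome P450 enzymes, rose by 1.04 and 0.91 on the log2 scale, and Gsta2, a glutathione transferase, had 8.36 to 20.2 CPM (median 12.6) in the intact mice and 2.5 to 6.74 CPM (median 3.78) in the castrated mice and fell by 1.67. After adjustment for the outside-gene share, the glucose list had 2 falls and no rise, the taurine list 1 fall and the xenobiotic list 2 rises, and Insr changed sign.

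Acute phase proteins, secreted by hepatocytes in inflammation, rose more often than they fell: 10 of 19 rose and 2 fell, with a median log2 fold change of 0.47. Lcn2, the siderophore-binding lipocalin, had 1.4 to 10.7 CPM (median 8.12) in the intact mice and 19 to 119.9 CPM (median 65.5) in the castrated mice, with no overlap. It rose by 3.40 ± 0.73 on the log2 scale (adjusted p = 0.000156). Saa1 and Saa2, the serum amyloid A proteins, had wide ranges among castrated mice, Saa2 with 7.24 to 47.2 CPM (median 27.2) in the intact mice and 28.5 to 477 CPM (median 128) in the castrated mice, and rose by 2.29 ± 0.78 and 2.72 ± 0.84 on the log2 scale (adjusted p = 0.0114 and 0.00552). Orm2 and Orm3, the orosomucoids, rose by 2.38 and 2.29, whereas Hamp, the iron hormone hepcidin, fell by 1.15 on the log2 scale (adjusted p = 0.0453). Hamp2, its relative in the ovary-biased list, had 1.56 to 8.26 CPM (median 4.55) in the intact mice and 12.2 to 47.1 CPM (median 29.4) in the castrated mice. It rose by 2.58 ± 0.56 on the log2 scale (adjusted p = 0.000157). Of 19 complement components 7 rose (36.8%) and 6 fell (31.6%), or 13 and 5 with library totals, where over all genes 28.0% rose and 28.8% fell. C3, on which all activation routes converge, had 2659 to 6436 CPM (median 3863) in the intact mice and 9660 to 12820 CPM (median 11120) in the castrated mice. It rose by 1.41 ± 0.21 on the log2 scale (adjusted p = 8.51e-07), and C4b rose by 1.09. The members that fell included 5 of the membrane attack complex: C9 had 379 to 846 CPM (median 594) in the intact mice and 224 to 289 CPM (median 243) in the castrated mice. It fell by 1.26 ± 0.22 on the log2 scale (adjusted p = 6.46e-06), C8b, C8g and C8a fell as well, and C6, a testis-biased gene, had 123 to 312 CPM (median 171) in the intact mice and 22.1 to 53.8 CPM (median 38.5) in the castrated mice and fell by 2.37. None of the arms of C3, C9 and C6 overlapped. Under the share-adjusted fit, 1 acute phase gene rose and none fell, and 1 complement gene rose and 1 fell, with C4b and C8g changing sign.

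Some markers of immune and stromal cells rose, where 28.0% of all genes did. All 5 MHC class II genes rose, with H2-Aa at 7.15 to 12.9 CPM (median 7.87) in the intact mice and 16.5 to 58.6 CPM (median 24.3) in the castrated mice (log2 fold change 1.81 ± 0.46, adjusted p = 0.00102) and a summed level of 40.1 to 70.5 CPM in the intact and 79.8 to 273 CPM in the castrated mice. Of 13 macrophage markers 6 rose and none fell, with a summed level of 362 to 778 CPM and 479 to 1534 CPM. Itgax, the integrin CD11c, had 1.356 to 38.6 CPM (median 12.2) in the intact mice and 53.6 to 132 CPM (median 75.9) in the castrated mice, with no overlap. It rose by 2.37 ± 0.49 on the log2 scale (adjusted p = 9.06e-05), and Csf1r, the receptor that macrophages need to survive, rose by 1.61. Clec4f and Vsig4, markers of resident Kupffer cells, did not pass (log2 fold changes -0.10 and -0.78, adjusted p = 0.685 and 0.107). Of 11 stellate cell and fibroblast markers 5 rose, among them Col1a1 and Col3a1 (log2 fold changes 1.38 and 1.13, adjusted p = 0.0395 and 0.019), with a summed level of 273 to 381 CPM and 305 to 509 CPM. Of 6 neutrophil markers 1 rose, Csf3r, which had 2 to 9.41 CPM (median 4.85) in the intact mice and 14.1 to 44.8 CPM (median 21) in the castrated mice. Sinusoidal endothelial markers counted 3 rises and 1 fall of 8, those of T cells 2 rises of 5, of B cells 2 rises of 5, of NK cells 1 rise and 1 fall of 5, and of cholangiocytes 1 rise and 1 fall of 4. Of the hepatocyte markers Cps1 rose and Ttr fell, and Alb had 59760 to 116800 CPM (median 78190) in the intact mice and 64040 to 83750 CPM (median 76820) in the castrated mice. The single pancreatic marker tested, Cela1, fell (log2 fold change -2.30), 2 of the 5 pancreatic markers had no read in any of the 12 mice, no adipocyte marker was tested (summed level at most 0.143 CPM), and of 3 erythroid and 2 mesothelial markers 1 fell and none passed, respectively. The part of these cells in the acute phase, complement and matrix genes was not tested. Once the outside-gene share was adjusted for, no macrophage or MHC class II marker passed and Csf1r and Ttr changed sign, and without mice 89033 and 99557 7 and 5 rose.

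Of 16 genes of the unfolded protein and integrated stress response 9 fell and 1 rose. With library totals 5 fell and 4 rose. Manf, a secreted stress-induced factor, had 46.6 to 215 CPM (median 91.4) in the intact mice and 19.4 to 31.2 CPM (median 23.9) in the castrated mice. It fell by 2.20 ± 0.26 on the log2 scale (adjusted p = 1.15e-08), and Hspa5, the chaperone BiP, fell by 0.66 (adjusted p = 0.000888). The MUPs, themselves secreted proteins of the same cells, fell in the same mice, and what part this has in the chaperones was not tested. Of 19 cell cycle genes 6 rose (31.6%, against 28.0% of all genes) and 2 fell, with levels that were low: Mki67, a marker of dividing cells, had 2.26 to 15.7 CPM (median 4.09) in the intact mice and 9.67 to 24.5 CPM (median 18.4) in the castrated mice. It rose by 1.47 ± 0.38 on the log2 scale (adjusted p = 0.00108). Of 16 clock genes 3 rose (18.8%) and 5 fell (31.2%), shares near or below those of all genes (28.0% and 28.8%), and with library totals 6 rose and 4 fell. The 3 were the period genes, with Per3 at 24.2 to 47.8 CPM (median 33.1) in the intact mice and 77.7 to 121 CPM (median 90) in the castrated mice (log2 fold change 1.44 ± 0.18), while Bhlhe41, a repressor of the clock, had 2.57 to 6.33 CPM (median 5.05) in the intact mice and 0.547 to 1.13 CPM (median 0.91) in the castrated mice. It fell by 2.42 ± 0.28 on the log2 scale (adjusted p = 8.1e-09), and Clock fell by 0.79. The labels used here give no time of day for collection. Nfya and Nfyc, subunits of the CCAAT-binding factor NF-Y, rose by 0.76 and 0.25 (adjusted p = 1.39e-05 and 0.0365), and Nfyb did not pass. Ovariectomy of XY mice gave 2 rises among the 3 NF-Y genes too, with no difference called. Of 13 S100 proteins and annexins 4 fell and 1 rose, or 3 and 3 with library totals, with S100a10, the annexin A2 partner, at 58.8 to 563 CPM (median 253) in the intact mice and 30.1 to 50.7 CPM (median 40.3) in the castrated mice (log2 fold change -2.74 ± 0.38, adjusted p = 2.99e-07). In the share-adjusted fit, 1 stress response gene and 2 clock genes fell, 1 S100 or annexin gene rose, and no cell cycle or NF-Y gene passed, with Mki67, Nfya, Nfyc and S100a10 changing sign.

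**Figure D5:**
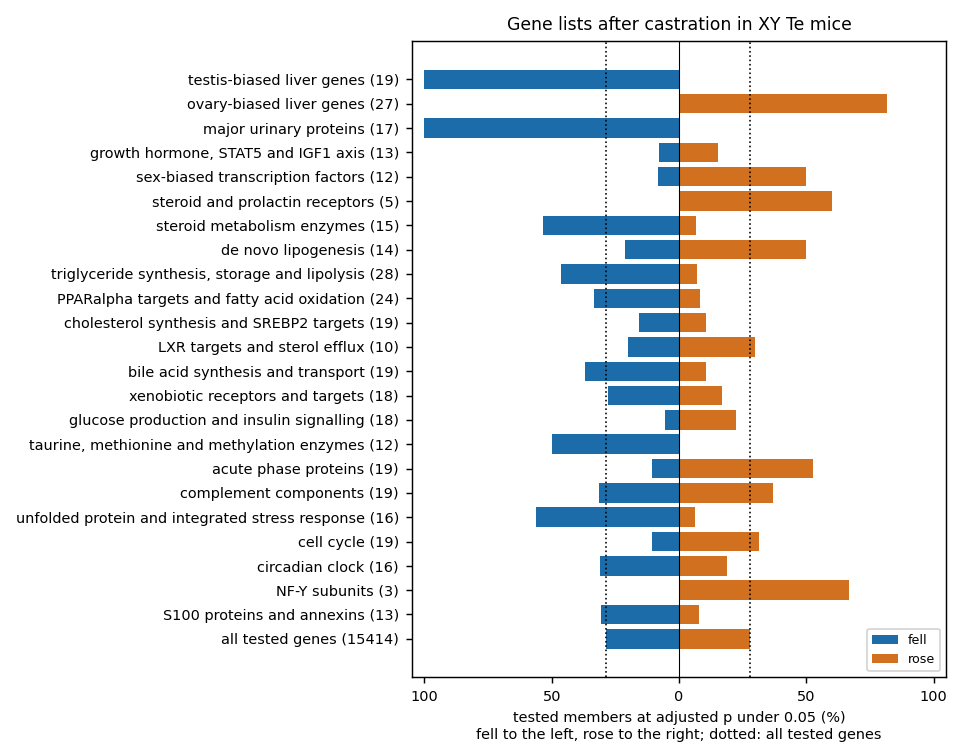
Share of the tested members of each gene list (number in brackets) that fell (blue, to the left) or rose (orange, to the right) at an adjusted p under 0.05 after castration in XY Te mice, in percent, and dotted lines give the shares over all 15414 tested genes, 28.8% and 28.0%. The MUPs and the testis-biased list reach 100% on the left and the ovary-biased list 81.5% on the right.

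Some RNAs that describe the library also moved. Of 3 tested long RNAs held in the nucleus, Malat1 and Neat1 rose: Malat1 had 275 to 514 CPM (median 353) in the intact mice and 1660 to 2073 CPM (median 1775) in the castrated mice (log2 fold change 2.23 ± 0.17, adjusted p = 1.07e-13) and Neat1 60.4 to 88 CPM (median 78.1) in the intact mice and 232 to 322 CPM (median 266) in the castrated mice. Neither gene's arms overlapped, and after ovariectomy of XY mice both rose (log2 fold changes 2.29 and 1.93, differences -0.07 and -0.09, adjusted p = 0.916 and 0.936). The third, Meg3, had 0.254 to 4.67 CPM (median 0.586) in the intact mice and 0.163 to 0.643 CPM (median 0.351) in the castrated mice and fell by 1.69 on the log2 scale (adjusted p = 0.00874), a call that was lost without intact mouse 20024 (log2 fold change -0.70, adjusted p = 0.259). Of 12 mitochondrially encoded mRNAs 10 fell and none rose, with a median of -0.66, where 28.8% of all genes fell. Their summed level was 72040 to 132800 CPM in the intact and 51280 to 66980 CPM in the castrated mice. With library totals 4 fell and none rose (median -0.33), where 2553 of all 15414 genes fell. In the share-adjusted fit 6 fell and none rose, where 8.26% of all genes fell. After ovariectomy of XY mice 3 of the 12 fell (median -0.27), against 29.2% of all genes. After castration of XX mice 2 did (median -0.28), against 18.7% of all genes. The share of reads outside genes was higher in those GDX mice too. The relation of these RNAs to the other changes was not tested.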

How the data were processed

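Liver RNA of 48 mice, 6 in each of 8 groups, was sequenced as mRNA libraries. The authors aligned reads with STAR 2.7.10a to GRCm39 and deposited raw counts of reads per gene, as whole numbers, with 4 summary lines per library that were kept out of library sizes and tests. The strand setting and the annotation release were not given in the sources used here, so overlapping and antisense genes cannot be told apart. Of 55414 identifiers 31020 (56%) had a symbol in the naming tables, and symbols of MUP genes differ between tables.

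Counts were filtered with filterByExpr, scaled with TMM factors and fitted over all 48 mice with a mean per group in edgeR 4.0.16 (R 4.3.3), using its quasi-likelihood test, with p-values adjusted by Benjamini-Hochberg over 15414 genes. Differences between 2 effects were contrasts of the same fit. P-values measure the spread between the mice, and mice were told apart by their numbers alone. No pair of libraries within an arm agreed within sampling noise (chi-square per gene 13.4 to 306 over 15 pairs per arm). Alternatives were DESeq2 1.42.0, other scalings and filters, a surrogate variable (sva 3.50.0), the share of reads outside genes as covariate, other samples and each mouse left out. The fit without 2 intact mice was chosen after seeing the data. On simulated data with 200 genes changed 2-fold among 14974, the castration test recovered 168 (84%) with 10 false calls. The genes were changed in XY Te GDX alone, and all other genes were simulated without a difference between groups. No effect of diet length or of the share of reads outside genes was simulated, whereas 56.7% of genes were called in the data. The simulated rates therefore need not hold for the data.

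The comparison and the gene lists were chosen with earlier results of these data known. Named genes were the 12 highest and 12 lowest changes of castration, the 6 and 4 highest and lowest differences from ovariectomy and from XX mice (at least 2 CPM in the higher arm), list members, and Pnpla3, Esr1, Xist and Y-linked genes. Not every gene of that rule is printed, and some are not reported here. Intervals of read ratios are exact at 95% and cover counting error only. Promoters came from RefSeq GRCm38.p6. Python 3.11.15 with pandas 2.3.3, numpy 2.4.6, scipy 1.17.1 and matplotlib 3.10.9 was used for tables and figures.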

Additional observations from a re-analysis of the deposited data

Results flagged for a closer look

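Single mice lay far from the rest of their group in 13 of 70 groups of 6 examined. The nominal rate of about 1 in 20 holds for normal values, whereas unlogged CPM of named genes were used. The count of 13 is therefore not read against that rate. Among the castrated mice, 59091 had the highest Mup11, Mup20 and Slco1a1 (1.71, 189.5 and 6.05 CPM against 0.851, 46.9 and 3.57 CPM in the next mouse). Mouse 13306 had the highest Lox (24.6 CPM against 8.08), and 30544 the highest Pnpla3 (5.26 CPM against 2.13). Among the intact mice, 70314 had the highest Cyp2c69 (2.46 CPM against 1.25) and Cyp2c40 (2.37 CPM against 0.932). It also had the lowest Kdm5d, a Y-linked demethylase (14.9 CPM against 19.1). Its Sult2a5 was the highest too (0.17 CPM against 0), but below its floor of 3 reads (0.254 CPM). Mouse 20024 had the highest Hsd3b5 (396 CPM against 147), 99557 the highest Acod1 (4.39 CPM against 0.5) and Cxcl13 (44.5 CPM against 10.2), and 89033 the highest Lox (1.80 CPM against 0.572).

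The effect of castration in XY Te mice differed from that of ovariectomy in XY Ov mice for 338 genes and from that of castration in XX Te mice for 340. The differences in log2 fold change from ovariectomy were -6.46 for Mup11, -7.47 for Mup7, -7.17 for Mup14, -6.33 for Mup1, -5.89 for Mup18, -6.11 for Mup9, -4.75 for Mup20, -4.93 for Slco1a1 and -5.82 for Mup19. Higher after castration than after ovariectomy were Cux2 (5.95), Cyp2b13 (5.85), A1bg (5.67), Cyp2c69 (7.25), Cyp2c40 (6.75), Slc22a26 (5.44), Sult2a2 (5.28), Cyp2a4 (5.44), Cyp2a22 (3.81) and Aldh3b3 (4.05). The differences from castration in XX mice were -5.65 for Mup11, -4.57 for Mup7, -4.45 for Mup14, -4.66 for Mup1, -5.41 for Mup18, -4.80 for Cyp4a12a, -4.05 for Mup9, -3.15 for Mup20 and -4.68 for Mup19 on the lower side, and 2.85 for Cyp2a4, 1.85 for Aldh3b3, 5.02 for Acod1, 4.56 for Cxcl13, 4.39 for Cdkn2a and 3.76 for Lox on the higher side. The adjusted p (edgeR) was 0.0417 or less for each of these against XX mice and 0.039 or less against ovariectomy.

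Outside the gene counts, the share of reads that fell on no gene had a median of 10.5% in castrated and 4.18% in intact XY Te mice.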

How the results depend on the processing

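Of 2804 recomputed values of 129 named genes, 2624 kept direction and side of the threshold, 135 lost the call, 23 gained it and 22 turned sign. All that turned sign did so with the share of reads outside genes as a covariate, where the log2 fold changes were Abcg1 -0.093, Acod1 -1.93, Akr1c6 0.70, Apob -0.66, C4b -0.24, C8g 0.75, Csf1r -0.24, Cxcl13 -0.011, Fabp1 0.45, Fasn -0.33, Hsd17b2 0.41, Insr -0.43, Mki67 -0.19, Nfya -0.23, Nfyc -0.28, Pklr -0.35, Ppargc1a -0.11, S100a10 0.46, Slc25a20 0.78, Srebf2 -0.30, Ttr 0.15, Xist -0.33. That share does not overlap between the arms, so the covariate and castration cannot be told apart. With this covariate the calls were 1941 for castration, 1020 for its difference from ovariectomy, 8 for its difference from XX mice, 4522 between intact XY Te and XY Ov mice, 60 of 173 testis-biased genes that fell, 63 of 213 ovary-biased genes that rose, and 72 gene list members in place of 203. DESeq2 gave 597, 621 and 10 calls for the differences from ovariectomy, from XX mice and after GDX. No filter on low counts gave 153, 191 and 1, at least 10 counts in every mouse 202 for the difference from ovariectomy, 1575 for intact mice, 47 of 60 and 45 of 91 for genes biased in XX, and 1 surrogate variable 988 for the difference from ovariectomy. Fitting the compared arms alone gave 6 for the difference from XX mice, 837 for intact mice, 11 after GDX, 77 of 97 and 48 of 66. A fold above 1.5 as well gave 1514 and 2 for intact mice and after GDX, and an unadjusted p gave 2560, 2285, 4484 and 229. Without mice 89033 and 99557, chosen after seeing the data, the differences from ovariectomy and from XX mice gave 714 and 1122, and castration 9623. Leaving out single mice gave 8018 to 9507 for castration, 164 to 512 for the difference from ovariectomy, 4 to 795 for that from XX mice, 1677 to 2845 for intact mice, 2 to 5 after GDX, 116 to 135 testis-biased genes that fell, 83 to 193 ovary-biased genes that rose, and 1.13 to 2.20 CPM for Pnpla3 (exact permutation p 0.00433 to 0.0173). The mice that moved the difference from ovariectomy by over 1.5 times were 10606 (512), 20024 (195), 76370 (197), 13306 (164), 28605 (219), 19562 (178), 72268 (218), 69065 (220), 799 (187) and 89895 (167), and those that moved the difference from XX mice were 13306 (4), 21022 (215), 28605 (120), 69848 (594), 14614 (4), 16037 (49), 69358 (152), 71064 (146), 20024 (31), 76370 (48) and 89033 (795). Why these values moved was not tested. No paired analysis was possible because the labels give mouse numbers and no replicate number that groups share. With 6 mice per arm the simulated 2-fold differences between effects were recovered in 56.5% (ovariectomy) and 59.5% (XX mice) of genes, and genes at the floor of 3 reads had no usable fold. The limits given above for the simulation hold for these rates too.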
